A study of Mus musculus with 9 samples.

Results

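Mucins and the proteins secreted with them into intestinal mucus were followed across the ileal stem cell niche of mice with and without ileitis. The 10 genes were Muc2, Muc1, Muc3, Muc4, Muc13, Zg16, Fcgbp, Tff3, Spink4 and Klk1, chosen by symbol through their NCBI gene numbers. A row was found for 9 of them among the 18220 rows of the table, and 8 were among the 11775 genes with a mean FPKM (fragments per unit of transcript length and of sequencing depth) of at least 1. Muc1 lay below that level. No row was matched to Muc3 by gene number or by RefSeq transcript, and it was not analysed here. The genes were chosen with the results of these comparisons known, so their own fold changes and calls are given as a description and support nothing by themselves.

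RNA was sequenced from tissue of the crypt base taken by laser microdissection. SAMP/YitFc (SAMP) mice are an inbred strain that develops Crohn's-like inflammation of the ileum, and AKR is the strain used as its control. The first group was SAMP mice aged 25 weeks with ileitis, called SAMP 25 wk. The second was SAMP mice aged 5 weeks without inflammation, called SAMP 5 wk, and the controls were AKR mice aged 25 weeks without inflammation, called AKR 25 wk. Each group had 3 biological replicates, and all 9 libraries carry the genotype label wild type, with no treatment given. SAMP 25 wk differs from AKR 25 wk in strain as well as in ileitis, and from SAMP 5 wk in age as well as in ileitis, and these cannot be told apart here.

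Muc2 is the secreted, gel-forming mucin of the intestine, made by goblet cells and packed into their granules. Fcgbp, which carries repeated von Willebrand D domains, the lectin-like protein Zg16 and the trefoil peptide Tff3 are released into the same gel, where Zg16 binds the cell wall of Gram-positive bacteria. Spink4 belongs to the Kazal-type family of serine protease inhibitors, and Klk1 is tissue kallikrein, a serine protease. Muc1, Muc3, Muc4 and Muc13 are membrane-bound mucins that form part of the glycocalyx on the cell surface.

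The promoters of 7 of the 10 genes were matched in the RefSeq table of GRCm38.p6, and those of Zg16, Tff3 and Spink4 were not. The 250 bases before the annotated start are shown for Muc2 and Klk1, which were higher in SAMP 25 wk, and for Fcgbp, which was lower. All are on the plus strand of chromosome 7, Muc2 at chr7:141690090-141690339, Klk1 at chr7:44225110-44225359 and Fcgbp at chr7:28070986-28071235. Capitals mark matches, on either strand, to CAGCTG, the E-box of the kind bound by ATOH1, to TTTATG, the core of CDX2 sites, to GGATGT, an ETS core of the kind bound by SPDEF, to the palindromic STAT6 motif, TTC and GAA set 4 bases apart, or to TATAAA, the TATA box.
Muc2: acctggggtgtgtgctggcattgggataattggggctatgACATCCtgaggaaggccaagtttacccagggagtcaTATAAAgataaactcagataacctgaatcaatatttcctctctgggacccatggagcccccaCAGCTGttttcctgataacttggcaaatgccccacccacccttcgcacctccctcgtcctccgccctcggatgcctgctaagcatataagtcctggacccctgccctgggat
Klk1: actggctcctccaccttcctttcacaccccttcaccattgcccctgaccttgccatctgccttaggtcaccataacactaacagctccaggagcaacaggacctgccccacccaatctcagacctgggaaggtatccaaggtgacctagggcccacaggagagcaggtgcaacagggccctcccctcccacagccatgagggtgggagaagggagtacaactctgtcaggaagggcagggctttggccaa
Fcgbp: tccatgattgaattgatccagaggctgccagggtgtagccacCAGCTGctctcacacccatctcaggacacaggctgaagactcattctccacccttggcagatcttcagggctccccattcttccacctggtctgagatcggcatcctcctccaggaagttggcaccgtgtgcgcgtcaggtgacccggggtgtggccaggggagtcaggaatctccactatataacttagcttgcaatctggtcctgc
The Muc2 window held CAGCTG with its first base at -112, GGATGT on the minus strand at -210 and TATAAA at -174, counted from the annotated start. Fcgbp held CAGCTG at -208, and none of the 5 motifs was found in the Klk1 window. Of 32851 promoter windows of this length, 13% held CAGCTG, 10.8% TTTATG, 9.46% GGATGT, 5.85% the STAT6 motif and 12.4% TATAAA. The shared CAGCTG thus stood in the promoters of a gene that was higher and of a gene that was lower in SAMP 25 wk. A match is a string of letters and not a bound site, and its absence says only that these letters are not in the window. The GC content was 53.2% for Muc2, 58.8% for Klk1 and 56.4% for Fcgbp, against a median of 52.4% over all windows.

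The stem cell and Paneth cell markers of the niche were present in every library, with Lgr5 between 9.62 and 23.4 FPKM, Olfm4 between 195 and 1039 and Lyz1 between 5435 and 36165. Each library held an estimated 6970000 to 10200000 reads, judged from how low FPKM values are spaced. A pair of libraries stood apart. The summed FPKM of 14 enterocyte markers was 17724 in AKR 25 wk replicate 2, against 829 and 492 in the other AKR 25 wk libraries. In the SAMP 25 wk libraries it was 134 to 309, and it was 241 to 1601 at 5 weeks. SAMP 25 wk replicate 3 had an Xist level of 177 FPKM and an Eif2s3y level of 0.14 FPKM, against 0.21 to 1.32 FPKM and 14.53 to 26.97 in the other 8 libraries. It therefore differed from them in sex, which the labels do not give.

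Within the mucus genes, SAMP 25 wk split the set. Muc2, Spink4 and Klk1 were higher than in both groups without inflammation, whereas Zg16, Fcgbp and Tff3 were lower. By limma's moderated test with Benjamini-Hochberg adjustment over all tested genes, 6 of 8 passed an adjusted p of 0.05 against AKR 25 wk, 3 higher and 3 lower, where 2.94% of all tested genes passed, 1.59% higher and 1.35% lower. Against SAMP 5 wk 5 of 8 passed, 3 higher and 2 lower, where 1.52% of all genes passed, 0.909% higher and 0.611% lower. All 8 genes separated SAMP 25 wk from AKR 25 wk with no overlap between libraries, as did 19.2% of all tested genes. The same held for 7 of 8 against SAMP 5 wk, Muc4 being the exception, and for 20.2% of all tested genes. The SAMP 25 wk libraries enter both comparisons. Fewer goblet cells in the captured tissue and less RNA of a gene per cell cannot be told apart in these samples, nor can more cells and more RNA per cell.

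The gel-forming mucin gene Muc2 had 2406, 2181 and 1938 FPKM in the 3 SAMP 25 wk libraries, 779, 517 and 569 FPKM in SAMP 5 wk and 917, 1096 and 898 FPKM in AKR 25 wk. All SAMP 25 wk libraries lay above the other 6, and the SAMP 5 wk libraries were the lowest 3. Muc2 averaged 2175 ± 234 FPKM in SAMP 25 wk and 970.1 ± 109 FPKM in AKR 25 wk (SD, n = 3 each). It rose by 1.16 ± 0.27 (SE) on the log2 scale, or 2.24-fold. Against SAMP 5 wk, at 622 ± 139 FPKM, the log2 fold change was 1.82 ± 0.27, or 3.54-fold. Fold changes throughout are of FPKM + 1. The rise over SAMP 5 wk passed under all 22 alternative settings. The call against AKR 25 wk was lost in 11 of them (adjusted p at most 0.15). It was lost without any of the AKR 25 wk replicates, without SAMP 25 wk replicate 2 or 3 and without SAMP 5 wk replicate 2 or 3, at log2 fold changes of 1.11 to 1.26.

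Spink4, the Kazal-type inhibitor, was the most abundant of the set in every group by its mean. It had 10631, 14335 and 8933 FPKM in SAMP 25 wk, 3936, 1825 and 2137 FPKM in SAMP 5 wk and 2012, 1699 and 2266 FPKM in AKR 25 wk. The lowest SAMP 25 wk library was above the highest of the other 6, while SAMP 5 wk and AKR 25 wk overlapped. Spink4 rose by 2.49 ± 0.37 on the log2 scale against AKR 25 wk, or 5.60-fold, and by 2.16 ± 0.37 against SAMP 5 wk, or 4.46-fold. The call against SAMP 5 wk ended without SAMP 5 wk replicate 2, at 1.93, or without replicate 3, at 2.05. Both calls ended when no filter on low values was applied, with adjusted p of 0.076 and 0.16, the highest over their alternatives. The lowest adjusted p over the alternatives were 7.8e-05 and 0.00021.

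The kallikrein gene Klk1 had the tightest SAMP 25 wk values of the set relative to their mean, with 635, 588 and 602 FPKM. It had 241, 129 and 135 FPKM in SAMP 5 wk and 158, 192 and 144 FPKM in AKR 25 wk. SAMP 25 wk stood clear of both other groups, which overlapped each other. Klk1 averaged 609 ± 24.1 FPKM in SAMP 25 wk, 168 ± 63.3 FPKM in SAMP 5 wk and 165 ± 24.7 FPKM in AKR 25 wk (SD, n = 3 each). It rose by 1.89 ± 0.27 on the log2 scale against AKR 25 wk, or 3.71-fold, and by 1.91 ± 0.27 against SAMP 5 wk, or 3.75-fold. Both calls passed under all 22 alternatives. Klk1 has near-identical relatives, the Klk1b genes, among which the counting could have split reads. Klk1b3, at 2.90 to 5.14 FPKM in SAMP 25 wk, against 0.23 to 2.57 in SAMP 5 wk and 0.68 to 2.03 in AKR 25 wk, was the highest of the 8 in the table, and the other 7 stayed at or below 0.71 FPKM.

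**Figure D1:**
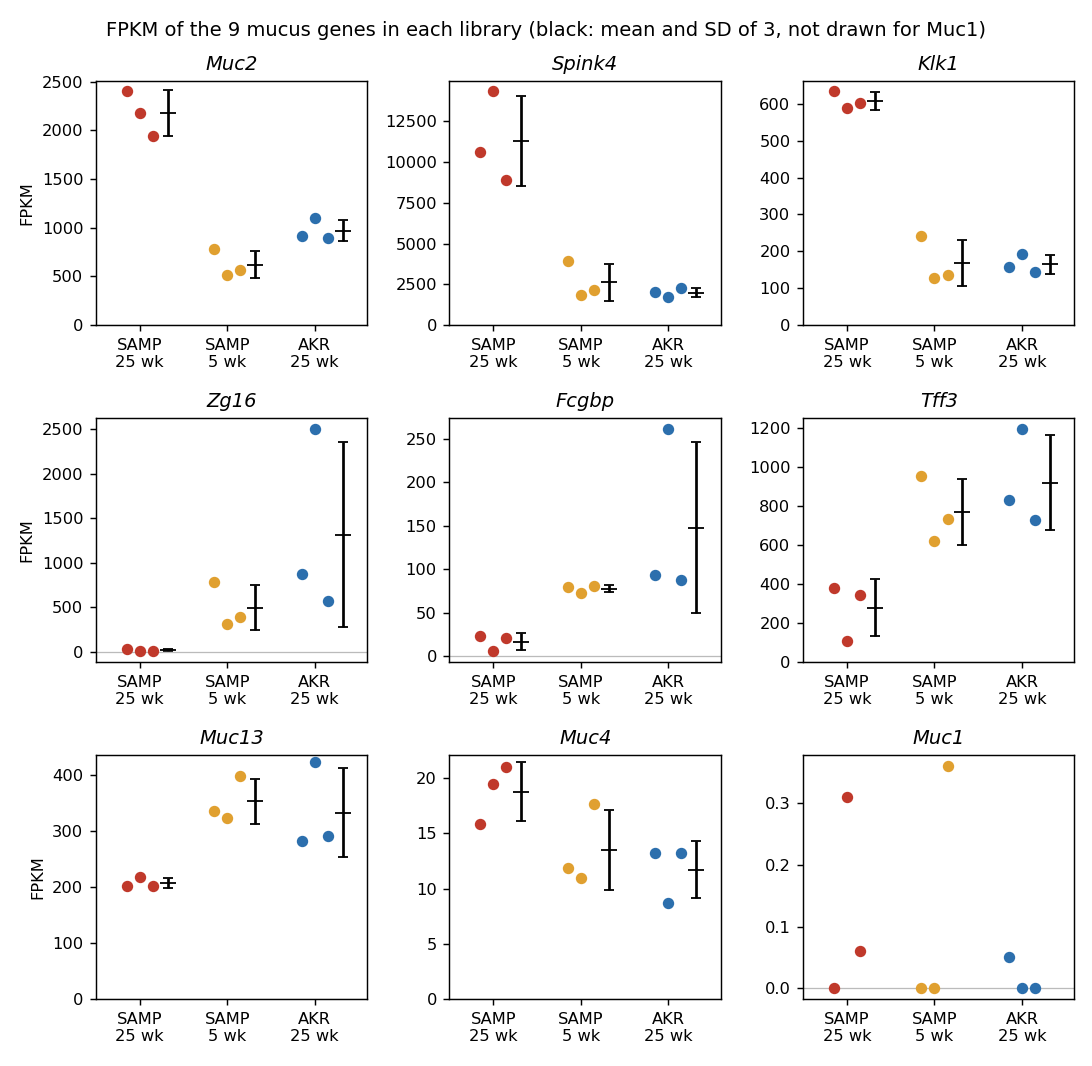
FPKM (vertical axes, linear, starting at 0) of the 9 mucus genes in each library, with SAMP 25 wk, SAMP 5 wk and AKR 25 wk from left to right. Points are libraries and black bars mean and SD of 3, left out for Muc1. Muc2, Spink4 and Klk1 are highest in all 3 SAMP 25 wk libraries, and Zg16, Fcgbp and Tff3 lowest.

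The lectin-like gene Zg16 changed most. It had 34.5, 12.9 and 9.96 FPKM in SAMP 25 wk, 780.0, 307 and 391 FPKM in SAMP 5 wk and 869.9, 2497 and 569 FPKM in AKR 25 wk. The highest SAMP 25 wk library was below the lowest of the others, SAMP 5 wk replicate 2. Zg16 fell by 5.94 ± 0.56 on the log2 scale against AKR 25 wk, or 61.3-fold, and by 4.70 ± 0.56 against SAMP 5 wk, or 26.0-fold. Both calls passed under all 22 alternatives. The estimated reads behind Zg16 were between 48, in SAMP 25 wk replicate 3, and 12861, in AKR 25 wk replicate 2. AKR 25 wk replicate 2, the library rich in enterocyte markers, also held the highest AKR value. Without it the log2 fold change against AKR 25 wk was -5.33, and without it and SAMP 25 wk replicate 3 together it was -4.99.

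Fcgbp, the von Willebrand D domain protein, had 23.2, 5.59 and 21.01 FPKM in SAMP 25 wk, 79.3, 73.1 and 80.5 FPKM in SAMP 5 wk and 93.5, 261 and 88.1 FPKM in AKR 25 wk. None of the groups overlapped, and SAMP 5 wk lay between the other groups. Fcgbp fell by 3.10 ± 0.49 on the log2 scale against AKR 25 wk, or 8.56-fold, under all 22 alternatives. Without AKR 25 wk replicate 2, again the highest, the value was -2.59, without SAMP 25 wk replicate 2, the lowest, it was -2.50, and library weights gave -2.35. Against SAMP 5 wk it fell by 2.37 ± 0.49, or 5.17-fold. That call was lost in 7 of 22 alternatives (adjusted p at most 0.13). It was lost without AKR 25 wk replicate 1, without SAMP 25 wk replicate 2 or 3 and without any of the SAMP 5 wk replicates, at log2 fold changes of -2.64 to -1.77, and with no filter.

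The trefoil peptide gene Tff3 had 382, 110.8 and 341 FPKM in SAMP 25 wk, 954, 620.0 and 730.0 FPKM in SAMP 5 wk and 831, 1194 and 729.8 FPKM in AKR 25 wk. SAMP 25 wk was below all other libraries, and SAMP 5 wk overlapped AKR 25 wk. SAMP 25 wk replicate 2 was the lowest library for both Tff3 and Fcgbp, though not for Zg16. Tff3 fell by 1.88 ± 0.42 on the log2 scale against AKR 25 wk, or 3.67-fold. Without SAMP 25 wk replicate 2 the value was -1.31 and without AKR 25 wk replicate 2 it was -1.67, and neither passed. In all, 10 of 22 alternatives lost the call (adjusted p at most 0.16), among them leaving out SAMP 25 wk replicate 3, SAMP 5 wk replicate 2 or 3 and AKR 25 wk replicate 1 or 3, at -2.12 to -1.88. Against SAMP 5 wk the log2 fold change was -1.63 ± 0.42 and did not pass, except without SAMP 25 wk replicate 1, at -1.95, and with library weights.

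The membrane-bound mucins differed less. Muc13 had 201, 217 and 202 FPKM in SAMP 25 wk, 336, 324 and 398 FPKM in SAMP 5 wk and 282, 423 and 292 FPKM in AKR 25 wk. Its log2 fold change was -0.66 ± 0.23 against AKR 25 wk and -0.76 ± 0.23 against SAMP 5 wk, and neither passed, although every SAMP 25 wk library was below the other 6. Muc4 had 15.85, 19.44 and 21.01 FPKM in SAMP 25 wk, 11.83, 10.97 and 17.61 FPKM in SAMP 5 wk and 13.2, 8.73 and 13.2 FPKM in AKR 25 wk. Its values of 0.65 ± 0.24 against AKR 25 wk and 0.47 ± 0.24 against SAMP 5 wk did not pass. In the RefSeq annotation the span of Muc4, chr16:32735886-32782391, overlaps that of Muc20, chr16:32777419-32797435, and the strandedness of the libraries is not given in the sources used here. Muc20 stayed between 0.12 and 1.34 FPKM.

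Muc1 was close to the detection limit. It was listed at 0, 0.31 and 0.06 FPKM in SAMP 25 wk, 0, 0 and 0.36 FPKM in SAMP 5 wk and 0.05, 0 and 0 FPKM in AKR 25 wk, or at most an estimated 8 reads. No difference was detectable at this depth.

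**Figure D2:**
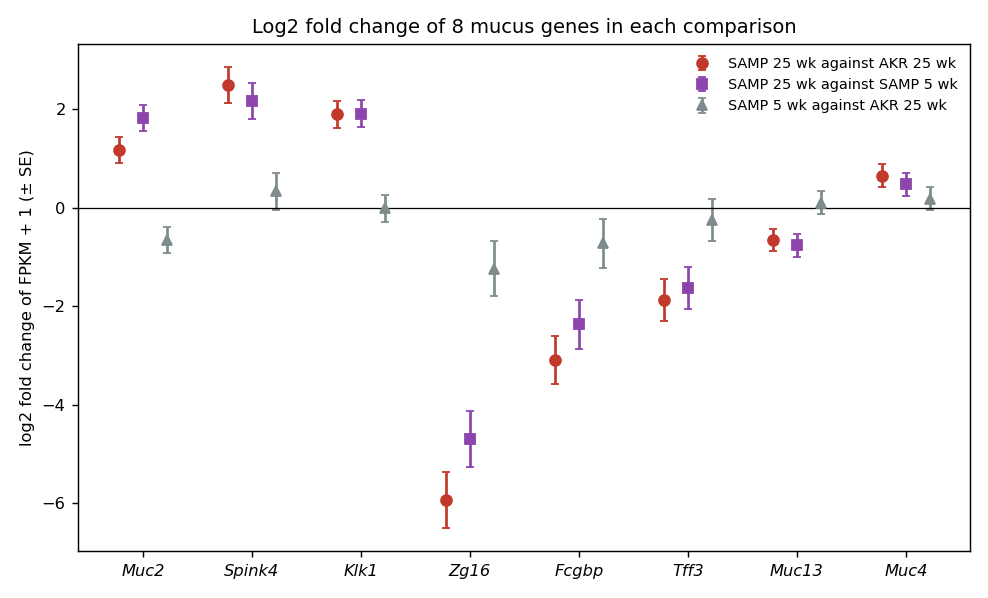
Log2 fold change of FPKM + 1 (vertical axis) of 8 mucus genes for SAMP 25 wk against AKR 25 wk (circles), SAMP 25 wk against SAMP 5 wk (squares) and SAMP 5 wk against AKR 25 wk (triangles), with bars for SE from the fit over 9 libraries. Both comparisons of SAMP 25 wk place Muc2, Spink4 and Klk1 above 0 and Zg16, Fcgbp and Tff3 below it, from 2.49 for Spink4 to -5.94 for Zg16.

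Between the groups without inflammation, SAMP 5 wk and AKR 25 wk, none of the 8 genes passed, where 0.552% of all tested genes did, 0.289% higher and 0.263% lower. At an unadjusted p below 0.05 the number was 2 of 8, against 7.47% of all tested genes. Muc2 had a log2 fold change of -0.66 ± 0.27 and Zg16 of -1.24 ± 0.56, and the groups overlapped for Zg16. Muc2 and Fcgbp were the members without overlap between groups, as were 14.4% of all tested genes. Fcgbp was at -0.73 ± 0.49, Tff3 at -0.25 ± 0.42, Spink4 at 0.33 ± 0.37, Muc4 at 0.18 ± 0.24, Muc13 at 0.10 ± 0.23 and Klk1 at -0.02 ± 0.27. Muc2 passed under quantile normalization, at -0.82, which raised the count to 1. A p that misses the threshold does not show that these strains and ages were alike.

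Both the sum of the set and its make-up separated SAMP 25 wk from the other groups, but the separation of the sum rested on Spink4. Without Spink4 the summed FPKM of SAMP 25 wk overlapped that of each other group. The 9 genes together held 1.86% to 2.36% of all FPKM in SAMP 25 wk, against 0.588% to 0.980% in SAMP 5 wk and 0.745% to 1.21% in AKR 25 wk. Spink4 took 74.0% to 82.1% of that sum in SAMP 25 wk, against 47.9% to 55.3% in SAMP 5 wk and 23.1% to 45.3% in AKR 25 wk. Zg16 took 0.0736% to 0.241% in SAMP 25 wk, against 8.07% to 10.96% in SAMP 5 wk and 11.4% to 33.9% in AKR 25 wk. The share of Tff3 was 0.634% to 2.83% in SAMP 25 wk, against 13.4% to 16.4% in SAMP 5 wk and 14.6% to 16.2% in AKR 25 wk. Muc2 kept a similar share, at 12.5% to 16.8% in SAMP 25 wk, against 10.9% to 13.6% in SAMP 5 wk and 14.9% to 18.0% in AKR 25 wk, with overlap between SAMP 25 wk and each other group. The shares of a library add up to its whole, so a larger share of Spink4 lowers the others.

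**Figure D3:**
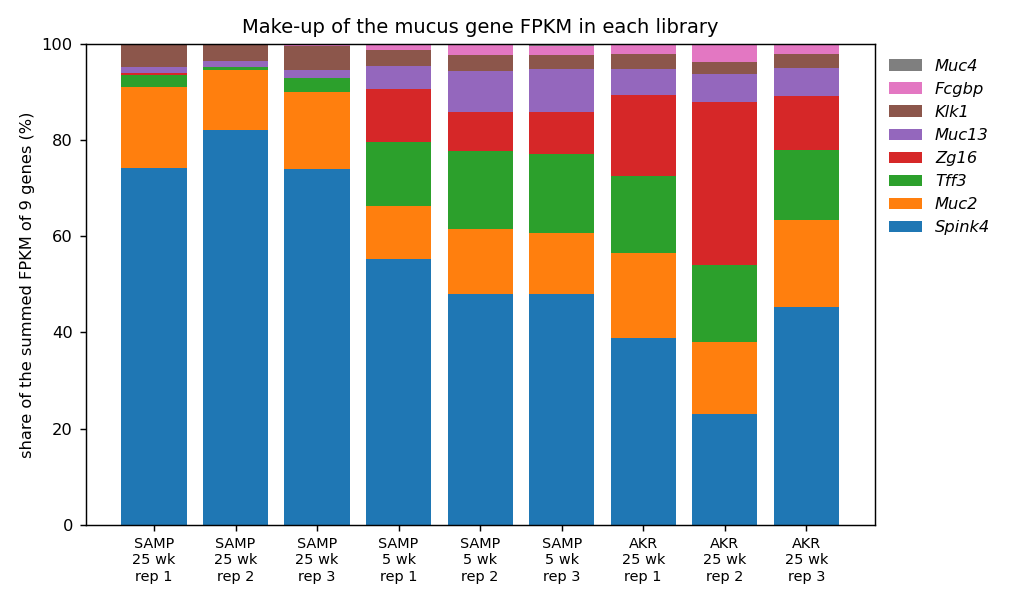
Share of the summed FPKM of the 9 mucus genes (vertical axis, percent) taken by each gene in each library, with SAMP 25 wk at the left, SAMP 5 wk in the middle and AKR 25 wk at the right. Muc1 is too low to draw. Spink4 fills 74.0% or more of the SAMP 25 wk columns, where the Zg16 band, 0.241% at most, is hardly visible.

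By mean FPKM, SAMP 25 wk ran from Spink4 through Muc2, Klk1, Tff3, Muc13, Zg16, Muc4 and Fcgbp to Muc1. The libraries of Tff3 and Muc13 overlapped, as did those of Zg16, Muc4 and Fcgbp, so these neighbours were not separated beyond their spread. In SAMP 5 wk the order was Spink4, Tff3, Muc2, Zg16, Muc13, Klk1, Fcgbp, Muc4 and Muc1, with overlap between each pair of neighbours from Tff3 to Muc13. In AKR 25 wk it was Spink4, Zg16, Muc2, Tff3, Muc13, Klk1, Fcgbp, Muc4 and Muc1, with overlap between each pair of neighbours from Spink4 to Tff3 and between Klk1 and Fcgbp. Klk1 came just after Muc2 in SAMP 25 wk, but after Muc13 in the other groups.

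A ratio of the FPKM of a pair of genes within a library does not depend on how that library was scaled. The ratios given here are of FPKM + 1, which leaves some dependence for low values. The log2 ratio of Zg16 to Muc2 was -6.95 ± 0.75 in SAMP 25 wk, -0.43 ± 0.39 in SAMP 5 wk and 0.15 ± 0.94 in AKR 25 wk (SD, n = 3 each). Zg16 was thus close to the level of Muc2 in both groups without inflammation. For Fcgbp the log2 ratio was -7.16 ± 1.06 in SAMP 25 wk, -2.96 ± 0.27 in SAMP 5 wk and -2.89 ± 0.72 in AKR 25 wk. For Tff3 it was -3.15 ± 0.99 in SAMP 25 wk, 0.30 ± 0.05 in SAMP 5 wk and -0.11 ± 0.21 in AKR 25 wk. The libraries of SAMP 25 wk did not overlap the other groups in any of these 3 ratios. This follows from the values above and adds no support, since SAMP 25 wk held the highest Muc2 and the lowest Zg16, Fcgbp and Tff3 values.

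The genes that were higher in SAMP 25 wk kept closer to Muc2, which was itself higher there, so this too adds no support. Klk1 to Muc2 was -1.83 ± 0.13 in SAMP 25 wk, -1.92 ± 0.20 in SAMP 5 wk and -2.56 ± 0.07 in AKR 25 wk. Spink4 to Muc2 was 2.35 ± 0.31 in SAMP 25 wk, 2.02 ± 0.28 in SAMP 5 wk and 1.03 ± 0.36 in AKR 25 wk. For both ratios SAMP 25 wk and SAMP 5 wk overlapped, and the libraries of AKR 25 wk were below those of both SAMP groups. Muc13 to Muc2 was -3.38 ± 0.17 in SAMP 25 wk, -0.80 ± 0.37 in SAMP 5 wk and -1.56 ± 0.17 in AKR 25 wk, and Muc4 to Muc2 was -6.79 ± 0.35, -5.43 ± 0.50 and -6.27 ± 0.47 in the same groups.

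**Figure D4:**
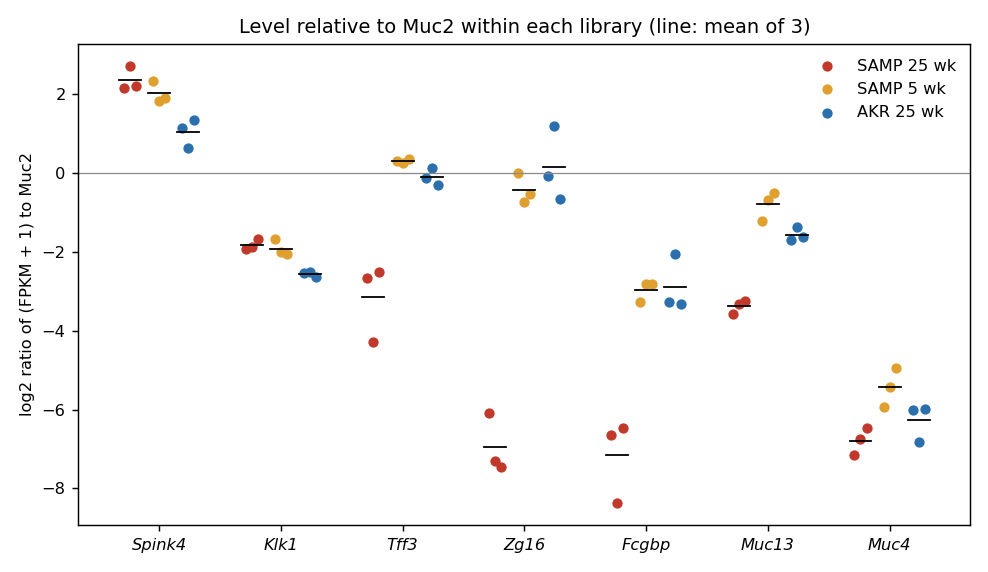
Log2 ratio of FPKM + 1 to that of Muc2 in the same library (vertical axis) for 7 genes, with SAMP 25 wk left of SAMP 5 wk and AKR 25 wk within each gene. Points are libraries and lines the mean of 3. Zg16 and Fcgbp have their lowest ratios in SAMP 25 wk, with means of -6.95 and -7.16, while Klk1 lies between -2.63 and -1.68 in all 9 libraries.

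Markers of other cells moved along with these genes in part. The summed FPKM of 10 goblet cell markers was 2515 to 4992 in SAMP 25 wk, against 1579 to 3235 in SAMP 5 wk and 2050 to 2519 in AKR 25 wk, with overlap between SAMP 25 wk and each other group, and none of the 10 was at 0 in any library. Agr2, at 1768, 1723 and 1770.3 FPKM on average in SAMP 25 wk, SAMP 5 wk and AKR 25 wk, made up 48.1%, 79.1% and 79.8% of this sum. Clca1, at 1450, 223 and 250 FPKM on average in the same groups, made up 39.5%, 10.2% and 11.3%. Gene by gene 5 of the 10 rose and none fell against AKR 25 wk, with a median of 1.01, where 1.59% of all tested genes rose. Against SAMP 5 wk 4 rose and none fell, with a median of 1.02, where 0.909% of all tested genes rose. The call of Foxa3 against AKR 25 wk was lost in 12 of 22 alternatives and that of Clca1 in 8. Against SAMP 5 wk the call of Bcas1 was lost in 12 and that of Foxa3 in 6, and Clca1 was not called. All 10 are also in the mucus pathway lists. The sum of 10 Paneth cell markers was 89025 to 140652 in SAMP 25 wk, against 54031 to 69110 in SAMP 5 wk and 35922 to 82472 in AKR 25 wk, with SAMP 25 wk above all other libraries. Defa17, Defa24 and Pla2g2a made up 37.4%, 20.4% and 17.8% of its mean in SAMP 25 wk. Of the 10, 3 rose and none fell against AKR 25 wk, and 2 rose and none fell against SAMP 5 wk, beside the same shares of all tested genes. Lyz1 itself was lower in SAMP 25 wk, at 5435 to 9141 FPKM, than in SAMP 5 wk, at 20238 to 25857, or AKR 25 wk, at 15074 to 36165. Of 11 tuft cell markers the sum was 62.5 to 70.5 in SAMP 25 wk, against 17.5 to 28.9 in SAMP 5 wk and 13.6 to 22.1 in AKR 25 wk, with 2 markers at 0 in at least 1 library. Of the 9 tested, 8 rose and none fell against AKR 25 wk, where 1.59% of all tested genes rose. The comparison with SAMP 5 wk had 4 that rose and none that fell, beside 0.909%. Dclk1 lost its call against AKR 25 wk in 11 of 21 alternatives, and Avil its call against SAMP 5 wk in 10 of 21. The sum of 6 of 11 pancreatic acinar markers that had a row was 3574 to 5470 in SAMP 25 wk, against 400.0 to 530.0 in SAMP 5 wk and 226 to 511 in AKR 25 wk, but 1 gene, the colipase gene Clps, made up at least 97.7% of its mean in each group. Cela2a, Cpa1 and Ctrb1 were at 0 in every SAMP 25 wk library. The 11 leukocyte markers summed to 276 to 614 in SAMP 25 wk, against 811 to 1107 in SAMP 5 wk and 1432 to 2166 in AKR 25 wk, and Cd74, of the antigen presentation pathway, made up at least 94.5% of the mean sum in each group. Gene by gene 3 of the 7 tested fell and none rose against AKR 25 wk, with a median of -1.28, where 1.35% of all tested genes fell. Against SAMP 5 wk 1 fell and none rose, where 0.611% of all tested genes fell. The macrophage marker Cd68 had a log2 fold change of -1.31 ± 0.30 against AKR 25 wk, a call lost in 9 of 21 alternatives. The general leukocyte marker Ptprc, at -0.02 ± 0.40, and the macrophage marker Csf1r, at -0.01 ± 0.24, did not pass in that comparison. The part of these cells in the mucus gene results was not tested. The sum of enterocyte markers was lower in all SAMP 25 wk libraries, at 134 to 309, than in AKR 25 wk, at 492 to 17724, but overlapped SAMP 5 wk, at 241 to 1601. Fabp6 made up 66.1% of its mean in AKR 25 wk, 66.5% in SAMP 5 wk and 23.3% in SAMP 25 wk. Gene by gene none of the 14 was called lower in either comparison of SAMP 25 wk. Fabp1 was called higher, at 2.55 ± 0.44 against AKR 25 wk and 2.51 ± 0.44 against SAMP 5 wk, where 5 of 21 alternatives lost the call.

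Other genes of the mucus pathway were counted from lists of other mucins, other secreted goblet and mucus proteins, goblet cell transcription factors and secretory machinery, mucin O-glycosylation enzymes, and the kallikrein and Spink families. Of 72 tested genes, 17 rose and 3 fell in SAMP 25 wk against AKR 25 wk, beside 2.94% of all tested genes called. The comparison with SAMP 5 wk had 14 that rose and 2 that fell, beside 1.52% of all tested genes called. In SAMP 5 wk against AKR 25 wk 3 rose and 1 fell, beside 0.552% of all tested genes called. Over all tested genes the log2 fold changes had a median of -0.15 against AKR 25 wk, -0.12 against SAMP 5 wk and -0.03 between SAMP 5 wk and AKR 25 wk. The count of 20 against AKR 25 wk was 13 without SAMP 25 wk replicate 2. The count of 16 against SAMP 5 wk became 9 and 10 without SAMP 25 wk replicates 2 and 3, and 9 and 8 without SAMP 5 wk replicates 2 and 3. The count of 4 in SAMP 5 wk against AKR 25 wk was 1, 2 and 1 without SAMP 5 wk replicates 1, 2 and 3, and 2 and 1 without AKR 25 wk replicates 1 and 3.

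Among the 16 other secreted proteins tested, 4 rose and none fell against AKR 25 wk, with a list median of -0.03. Over all tested genes 1.59% rose and 1.35% fell. Retnlb, a resistin-like antimicrobial protein of goblet cells, averaged 520.4 ± 216 FPKM in SAMP 25 wk and 6.87 ± 1.85 FPKM in AKR 25 wk, and rose by 5.99 ± 0.51 on the log2 scale (limma, adjusted p = 3.6e-05). Reg4, a C-type lectin of the Reg family, rose by 4.84 ± 0.61 and Ang4, an antimicrobial ribonuclease of Paneth and goblet cells, by 3.72 ± 0.42, under all 22 alternatives. The metalloprotease gene Clca1 rose by 2.77 ± 0.62, but 8 alternatives lost its call (adjusted p at most 0.12). It was lost without any of the SAMP 25 wk replicates, without SAMP 5 wk replicate 3 and without AKR 25 wk replicate 1 or 3, at 2.22 to 3.12. Without AKR 25 wk replicate 2 its value was 3.46. Agr2, a disulfide isomerase needed for mucin folding, had a value of -0.05 ± 0.36 against AKR 25 wk and 0.07 ± 0.36 against SAMP 5 wk.

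In SAMP 25 wk against SAMP 5 wk 3 of the 16 rose and 1 fell, with a median of 0.11. Over all tested genes 0.909% rose and 0.611% fell. Reg4 rose by 5.21 ± 0.61, and by 6.03 and 4.50 without SAMP 5 wk replicates 1 and 3. Ang4 rose by 2.87 ± 0.42, a call lost with no filter (adjusted p = 0.069). Retnlb was already at 123 ± 95.6 FPKM in SAMP 5 wk and rose by 2.30 ± 0.51, although 14 of 22 alternatives lost this call. It was lost without any of the SAMP 25 wk replicates, without SAMP 5 wk replicate 2 or 3 and without AKR 25 wk replicate 1 or 3, at 1.68 to 2.65, and the adjusted p was at most 0.15. Without SAMP 5 wk replicate 1 it was 2.90. The scavenger receptor gene Dmbt1 fell to 103 ± 94.0 FPKM in SAMP 25 wk, against 1158 ± 385 FPKM in SAMP 5 wk, and its call, at a log2 fold change of -4.08 ± 0.74, ended without SAMP 5 wk replicate 1 or 3, at -4.10 to -3.84. Without SAMP 25 wk replicates 1 and 2, one at a time, the value was -4.89 and -3.00. In SAMP 5 wk against AKR 25 wk, where 0.289% of all tested genes rose, Retnlb was the single gene of this list that passed. It had a log2 fold change of 3.69 ± 0.51. It was 3.09 and 4.31 without SAMP 5 wk replicates 1 and 2, and the call was lost without AKR 25 wk replicate 2 and SAMP 25 wk replicate 3 together (adjusted p = 0.059).

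Of 25 goblet cell transcription factors and secretory machinery genes, 7 rose and none fell against AKR 25 wk, and 8 rose and none fell against SAMP 5 wk, with medians of 0.74 and 0.88. The shares of all tested genes that rose were 1.59% and 0.909%. Some of these calls were not firm. Against AKR 25 wk and SAMP 5 wk, Foxa3 lost its call in 12 and 6 of 22 alternatives, Creb3l4 in 5 and 10 and Rab27a in 4 and 6. Bcas1, called against SAMP 5 wk alone, lost its call in 12. Spdef, the ETS factor that drives goblet cell maturation, averaged 54.7 ± 1.87 FPKM in SAMP 25 wk, 14.5 ± 7.48 FPKM in SAMP 5 wk and 15.7 ± 4.45 FPKM in AKR 25 wk. It rose by 1.77 ± 0.31 on the log2 scale against AKR 25 wk and by 1.95 ± 0.31 against SAMP 5 wk. The tryptase gene Tpsg1 rose by 2.41 ± 0.39 and 2.58 ± 0.39 against the same groups. The calls of Spdef and Tpsg1 against AKR 25 wk were lost without AKR 25 wk replicate 2 and SAMP 25 wk replicate 3 together (adjusted p = 0.10 and 0.061), at 1.65 and 2.44. Rep15, an effector of the trafficking GTPase Rab15, rose by 1.61 ± 0.19 against AKR 25 wk. Capn9, a calpain protease, rose by 1.95 ± 0.24 against SAMP 5 wk and had a value of 0.51 ± 0.24, not called, against AKR 25 wk.

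Several regulators of the goblet cell did not pass in either comparison. Atoh1, the factor that commits cells to the secretory lineage, had a log2 fold change of 0.74 ± 0.25 against AKR 25 wk and 0.93 ± 0.25 against SAMP 5 wk. Klf4, a factor of goblet cell differentiation, had 0.24 ± 0.24 and 0.85 ± 0.24 in the same order, and Xbp1, a factor of the unfolded protein response, -0.02 ± 0.20 and -0.09 ± 0.20. Ern2, the stress sensor kinase of mucus cells, lay near the threshold, at 1.15 ± 0.28 and 1.24 ± 0.28 (adjusted p = 0.051 and 0.052), and passed in 7 and 8 of 22 alternatives. In SAMP 5 wk against AKR 25 wk 1 of the 25 rose and 1 fell, beside a median of -0.17. Over all tested genes 0.289% rose and 0.263% fell. The list genes were Rep15, which rose by 1.10 ± 0.19, and Capn9, at -1.45 ± 0.24. Both of these calls ended without any of the SAMP 5 wk replicates and without AKR 25 wk replicate 1 or 3, and that of Rep15 also without SAMP 25 wk replicate 3, where adjusted p was at most 0.14. The values were then 0.98 to 1.18 for Rep15 and -1.53 to -1.27 for Capn9.

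The O-glycosylation enzymes, which build the sugar chains of mucins, moved both ways. Against AKR 25 wk 5 of 27 rose and 3 fell, with a median of 0.22, where 1.59% of all tested genes rose and 1.35% fell. The sialyltransferase genes St3gal4 and St3gal6 rose by 3.59 ± 0.29 and 2.72 ± 0.23, and St3gal4 averaged 20.2 ± 2.01 FPKM in SAMP 25 wk and 0.783 ± 0.342 FPKM in AKR 25 wk. Fut2, which adds the terminal fucose of the H antigen, rose by 2.75 ± 0.42, a call lost without AKR 25 wk replicate 2 and SAMP 25 wk replicate 3 together (adjusted p = 0.052). It averaged 12.0 FPKM in SAMP 25 wk, 7.70 in SAMP 5 wk and 0.827 in AKR 25 wk. Between SAMP 25 wk and SAMP 5 wk Fut2 was at 0.67 ± 0.42, not called. Its value in SAMP 5 wk against AKR 25 wk, 2.08 ± 0.42, did not pass (limma, adjusted p = 0.059) but did in 9 of 22 alternatives. St3gal1, which sialylates core 1 chains, fell by 1.69 ± 0.22. The calls of St3gal4, St3gal6 and St3gal1 passed under all 22 alternatives in both comparisons of SAMP 25 wk. Fold changes of low genes followed the pseudocount, and with 0.1 and 5 in place of 1 that of St3gal4 against AKR 25 wk was 4.61 and 2.12 and that of Fut2 3.62 and 1.50. The sulfotransferase gene Gal3st2 fell by 2.83 ± 0.52, a call that ended without SAMP 25 wk replicate 2 or 3, at -2.83 to -2.68. Without AKR 25 wk replicate 2 its value was -2.10. St6galnac1, which makes sialyl-Tn, fell by 2.30 ± 0.46, a call that ended without SAMP 25 wk replicate 2 or 3 and without AKR 25 wk replicate 1 or 2, at -2.39 to -1.78. St3gal3 rose by 1.31 ± 0.30, although 12 of 21 alternatives lost this call. It was lost without any of the AKR 25 wk replicates, without SAMP 25 wk replicate 2 or 3 and without SAMP 5 wk replicate 1 or 2, at 1.06 to 1.37.

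Of the 27 enzymes 3 rose and 1 fell against SAMP 5 wk, with a median of 0.19. Over all tested genes 0.909% rose and 0.611% fell. St3gal4 rose by 3.35 ± 0.29 and St3gal6 by 2.95 ± 0.23, and St3gal1 fell by 2.17 ± 0.22. Galnt5, which starts O-glycan chains, rose by 1.05 ± 0.21, a call that ended without SAMP 25 wk replicate 2 or 3 and without any of the SAMP 5 wk replicates, at 0.94 to 1.14. In SAMP 5 wk against AKR 25 wk, where 0.289% of all tested genes rose, B3gnt3, a core 1 extension enzyme, rose by 1.24 ± 0.21. The list median was -0.05. The call of B3gnt3 ended without any of the libraries of these groups, at 1.17 to 1.35. B3gnt3 also rose in SAMP 25 wk against AKR 25 wk, by 1.21 ± 0.21, a call kept in all 22 alternatives. Between SAMP 25 wk and SAMP 5 wk it was at -0.03 ± 0.21, not called. The chain-starting and core 1 enzymes Galnt3, at 0.80 ± 0.22, and C1galt1, at 0.20 ± 0.21, did not pass against AKR 25 wk.

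The other mucin genes were low. Of 15 listed, 5 had a row, and Muc5b, at 0 to 0.04 FPKM, Muc6, at 0.12 to 0.70 FPKM, Muc19 and Muc20 were below the level for testing. Emcn was tested and did not pass. Among 25 other kallikreins 13 had a row and 2 were tested, of which Klk14 rose by 1.59 ± 0.22 against AKR 25 wk and had 0.48 ± 0.22, not called, against SAMP 5 wk. Spink1, the other Spink gene tested, had a value of -2.99 ± 1.27 against AKR 25 wk and did not pass. It was at 245 FPKM in the highest AKR 25 wk library and at most 1.89 FPKM in SAMP 25 wk.

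**Figure D5:**
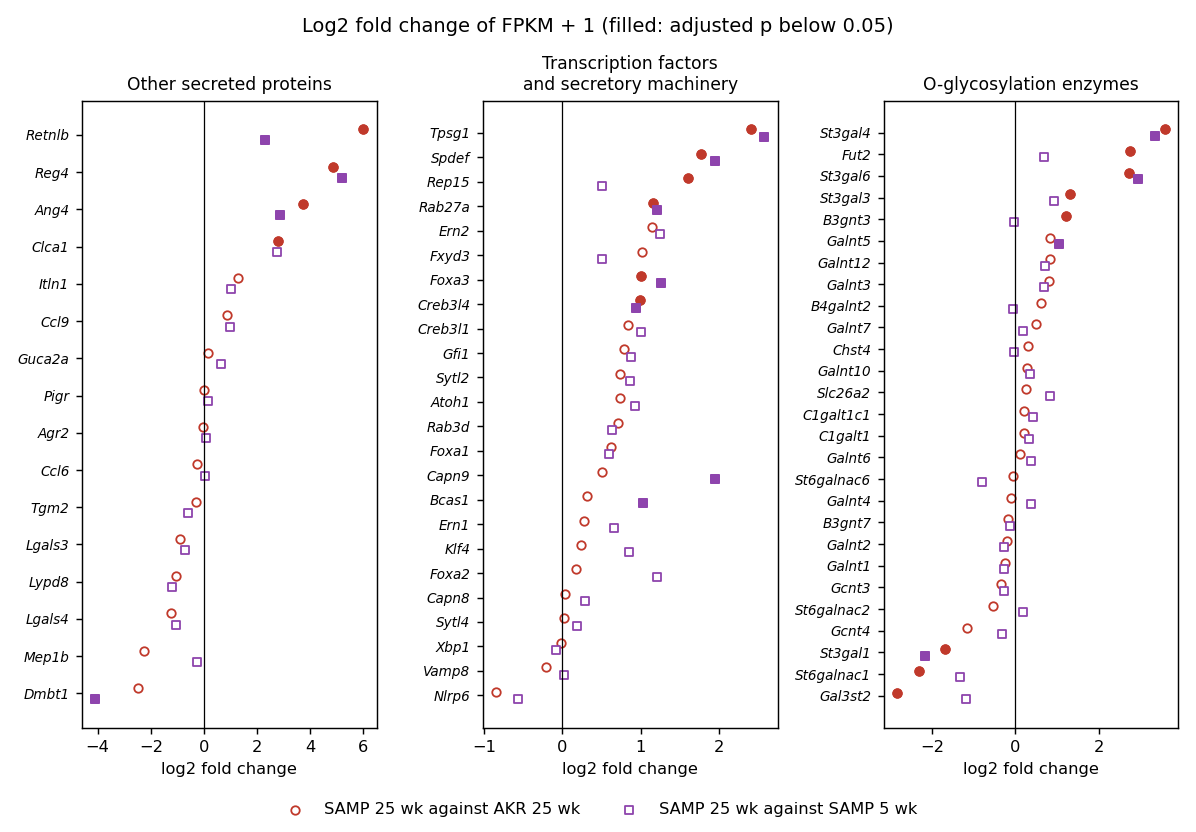
Log2 fold change of FPKM + 1 (horizontal axes) of tested genes of 3 pathway lists, 1 of them left out of the middle panel, for SAMP 25 wk against AKR 25 wk (circles) and against SAMP 5 wk (squares). Filled symbols passed an adjusted p of 0.05 over all tested genes. The called genes of the middle panel all lie above 0, up to Tpsg1 at 2.58, while the right panel holds calls on both sides, from St3gal4 at 3.59 to Gal3st2 at -2.83.

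The tested genes with the most similar pattern over the 9 libraries were ranked by Pearson's r of log2(FPKM + 1), as a description that the 3 groups largely shape. For Muc2 they were Me1 (0.98), Rmnd5a (0.97) and Neto1 (0.96). For Klk1 they were Map7 (0.99), Pla2g4c (0.98) and Mlph (0.98), and for Spink4 an unnamed row (0.99), Ang4 (0.98) and Tnfrsf21 (0.98). Zg16 was closest to Prdm1 (0.98), Pigp (0.98) and Mgam (0.97), and Fcgbp to Gsdme (0.99), H2-T3 (0.98) and Plcb3 (0.98). Tff3 was closest to Adck5, Ano9 (both 0.99) and Arhgap32 (0.98), Muc13 to Parm1 (0.97), Calm3 (0.96) and Reg3g (0.95), and Muc4 to Tnk2 (0.92), Cep78 (0.91) and Unc13b (0.89). Within the set r was 0.96 for Spink4 with Klk1 and 0.97 for Fcgbp with Tff3, and -0.92 for Fcgbp with Spink4.

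The nearest genes with a row in the table were read on either side of each member, passing over genes with a Gm number or a Rik symbol. Muc2 (chr7:141690340-141754691) has Muc6 and Muc5b as its nearest such genes, which were too low to test, and Klk1 (chr7:44225360-44229622) lies between Klk1b5 and Acp4, at no more than 0.71 FPKM. Fcgbp (chr7:28071236-28120864) lies between the proteasome gene Psmc4, with a log2 fold change of -0.03 ± 0.24 against AKR 25 wk, and the fibrillarin gene Fbl, with -0.37 ± 0.27. Zg16 (chr7:127050156-127052675) lies between the kinesin gene Kif22, at -0.65 ± 0.36, and AI467606, at -0.67 ± 0.28. Spink4 (chr4:40920056-40931395) lies between the galactosyltransferase gene B4galt1, at 0.53 ± 0.29, and Bag1, at -0.05 ± 0.20. Of 18 neighbours, 8 were tested, and limma called 0 in any comparison, with 1, 3 and 0 at an unadjusted p below 0.05 against AKR 25 wk, against SAMP 5 wk and between SAMP 5 wk and AKR 25 wk. Over all tested genes that share was 15.5%, 16.5% and 7.47%, and the 10 neighbours that were not tested are without a value.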

How the data were processed

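Per the file headers, the values in the single table the authors deposited are FPKM, for 18220 rows that each carry an NCBI gene number and its transcripts. The submitters' processing notes name GRCm38 and the tools Trimmomatic, STAR, HTSeq and DESeq2. Their versions and order, the read length and the strandedness are not given in the sources used here. A label field mentions cultured crypts, and how these relate to the captured tissue is not stated. Replicates are biological per the labels. For symbols, RefSeq's GRCm38.p6 table was matched on gene number (18155 rows) or accession (3), and GENCODE served for 5, leaving 57 without a name.

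Since FPKM are not counts, log2(FPKM + 1), with a pseudocount of 1, was tested with limma 3.58.1 (R 4.3.3) over the 11775 genes whose mean reached 1. All 9 libraries entered 1 fit of 3 group means, with a variance trend, 6 residual degrees of freedom and Benjamini-Hochberg adjustment within a comparison. Depths are estimates: 81.1% to 84.4% of low values lay within 0.2 of whole reads, against 40% at random, so no count test was run. Alternatives were other pseudocounts (0.1, 5), filters, scalings, variance settings and library weights and leaving out each replicate, 22 in all. Leaving out AKR 25 wk replicate 2 and SAMP 25 wk replicate 3 together was added after seeing the data. Tables and figures used pandas 2.3.3 and matplotlib 3.10.9 in Python 3.11.15.

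The members, gene lists and tests were chosen with earlier results of these data known. Named genes were the members, the 3 genes most like each, up to 4 called genes of each list by size with a fixed set of regulators, the chromosomal neighbours and defining markers. Lyz1 was also compared between groups after its values were seen. Klk1b3, Emcn, Spink1, the markers that carry or go against a sum and further genes whose calls were lost were named in the same way. The values of 1 gene of the pathway lists are not reported here, although it enters the counts.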

Additional observations from a re-analysis of the deposited data

How the results depend on the processing

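No paired analysis was possible because replicates were numbered by accession and share no animal, litter or day across groups in the labels. Over 22 alternatives for each of 8 genes, the direction and side of the threshold were kept in 151 values against AKR 25 wk, with 22 calls lost and 3 gained, and in 162 between SAMP 25 wk and SAMP 5 wk, with 10 lost and 4 gained. Between SAMP 5 wk and AKR 25 wk they were kept in 162, with 1 call gained and 13 reversals. Directions reversed in the last comparison alone, where no member was called. Muc4, at 0.18, was at -0.12 when rescaled without ribosomal RNA and defensin rows, between -0.015 and 0.30 when a SAMP 5 wk replicate was left out and -0.00088 without AKR 25 wk replicate 2, alone or with SAMP 25 wk replicate 3. Muc13, at 0.10, was at -0.023 under quantile normalization, -0.21 when rescaled without ribosomal RNA and defensin rows and between -0.0018 and 0.29 when an AKR 25 wk replicate was left out. Spink4, at 0.33, was between -0.0026 and 0.55 when a SAMP 5 wk replicate was left out. Klk1, at -0.02, was at 0.016 with equal medians, between -0.31 and 0.14 when a SAMP 5 wk replicate was left out (0.11 without replicate 3) and 0.098 without AKR 25 wk replicate 2, alone or with SAMP 25 wk replicate 3.

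The number of members called against AKR 25 wk was 6, 3 with no filter, 4 in a fit of these 2 groups alone, 7 when rescaled without ribosomal RNA and defensin rows, 8 with library weights and 4 to 6 when a replicate was left out. Between SAMP 25 wk and SAMP 5 wk it was 5, 3 with no filter, 8 with library weights and 3 to 6 when a replicate was left out. Between SAMP 5 wk and AKR 25 wk it was 0, 1 under quantile normalization and 0 whichever replicate was left out. Called genes of the pathway lists numbered 20 against AKR 25 wk, 42 with library weights, 13 to 22 when a replicate was left out and 13 without both libraries that stand apart. Between SAMP 25 wk and SAMP 5 wk they numbered 16, 7 with no filter, 43 with library weights and 8 to 21 when a replicate was left out. Between SAMP 5 wk and AKR 25 wk they numbered 4, 8 with library weights, 1 to 5 when a replicate was left out and 1 without both libraries. The cause of these shifts was not tested. Ratios to Muc2 moved by less than 1 SD with a pseudocount of 0. Estimated reads were fewest for Muc1, at most 8, and for Zg16 in SAMP 25 wk, from 48.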
